A study of Mus musculus with 2 samples.

Results

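The kelch-like proteins of muscle studied here are 7 genes, Klhl21, Klhl30, Klhl31, Klhl33, Klhl38, Klhl40 and Klhl41, chosen by name. Earlier results of these data were known when they were chosen. All 7 were found by symbol among the 22028 protein-coding genes of the 55536 annotated genes in the deposited tables. Total RNA came from the gastrocnemius, the main muscle of the calf, of male mice of the hybrid strain B6CASTF1/J at 10 days of age. There was 1 group of 2 libraries, replicate 1 and replicate 2, each made from 300 ng of RNA with ERCC spike-in RNAs added. In the labels the animals are numbered differently and share 1 donor code. No treatment, engineered allele or second condition is labelled, and the alleles of the hybrid's parents were not counted apart. The data therefore describe levels and the spread between 2 libraries, no gene was tested, and nothing in the labels says which part of that spread is technical. Levels are TPM, a length-scaled relative abundance that can be compared between genes. Values after ± are SDs over the libraries (n = 2 throughout), and positions are on mm10.

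Kelch-like proteins carry a BTB domain at one end and a row of kelch repeats, folded into a propeller, at the other. The BTB domain binds the scaffold Cul3, the propeller binds a client protein, and the assembled ligase attaches ubiquitin to that client once Cul3 has been modified with Nedd8. Several muscle members are known for their bond to sarcomere proteins: KLHL40 and KLHL41 hold thin-filament proteins stable, and mutations in either gene cause nemaline myopathy, a congenital weakness with rod-shaped protein deposits in the fibres.

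Defining genes of skeletal muscle were high, as the tissue label has it, and depth was even at 38874862 and 38160786 expected counts. All 6 skeletal muscle fibre markers were above 10 TPM in both libraries and their sums were 45164 and 45976 TPM. Markers of other cells of the tissue were also present: the 4 fibroblast genes summed to 3619 and 3246 TPM and the 4 satellite cell genes to 22.4 and 20.3 TPM. Sums were 129 and 138 TPM for the 4 endothelial genes, 338 and 390 for the 4 mural, 335 and 273 for the 4 Schwann cell and 18.9 and 18.2 for the 4 leukocyte genes. The 4 cardiac genes were mixed: Nppa was listed at 0 in both libraries and Tnni3 at 1.00 and 0.610 TPM, while Myh6 stood at 38.5 and 49.5 TPM and Tnnt2 at 17.5 and 18.5 TPM. The second deposited table, described below, gave Myh6 lower, at 18.2 and 15.8 TPM, and Tnnt2 higher, at 31.6 and 31.4 TPM. In bulk tissue, fewer cells of a type and less RNA per cell cannot be told apart.

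All 7 kelch-like genes were detected, and their levels spanned a 33.0-fold range, from Klhl41 at 224 ± 11.4 TPM down to Klhl38 at 6.79 ± 1.10 TPM. Each was at 1 TPM or more in both libraries, which 51.4% of protein-coding genes were. At 10 TPM or more in both were 6 of the 7, against 21.9% of protein-coding genes, and at 100 TPM or more were 2 of the 7, against 2.45%. The median of the 7 was 45.2 TPM (replicate 1) and 31.3 TPM (replicate 2), where the median protein-coding gene was at 1.39 and 1.29 TPM. Klhl33 was the median gene in both libraries, so the gap between those medians is its own. Summed over the 7, the libraries held 525 and 533 TPM (529 ± 6.28).

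**Figure D1:**
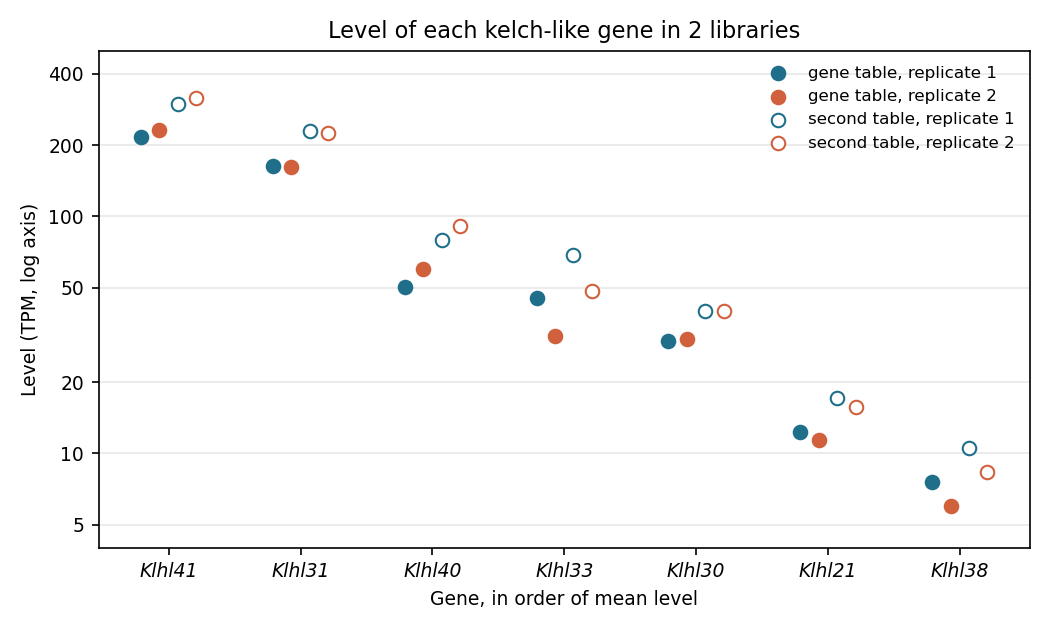
Level of each of the 7 kelch-like genes in TPM on a log axis, genes in order of mean level; filled points are the gene table, open points the second table, blue replicate 1 and orange replicate 2. Klhl41 and Klhl31 lie above 100 TPM in every column, and in neither table do the 2 libraries of one gene overlap those of its neighbour in the order.

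Members with a known sarcomere role were among the highest. Klhl41, a stabiliser of nebulin that also binds Nrap and Lasp1, had the highest level of the 7, with 216 TPM in replicate 1 and 232 TPM in replicate 2. These levels came from 17035 and 18323 expected counts. It ranked 257 among the protein-coding genes, above 98.8% of them. The gene, ENSMUSG00000075307.3, lies on the plus strand at chr2:69670120-69684230 and has 6 exons in its 1 annotated transcript. Both libraries put it above Klhl31, by 1.38-fold on the means.

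Klhl40, the other nemaline myopathy gene of the set and a stabiliser of Lmod3 and nebulin, stood at 50.4 TPM in replicate 1 and 60.2 TPM in replicate 2 (55.3 ± 6.92). Its 3709 and 4429 expected counts gave it rank 1010 among the protein-coding genes. ENSMUSG00000074001.3 is on the plus strand at chr9:121777607-121783818. Klhl40 and Klhl41 encode the most alike proteins of the 7: 320 of 604 aligned residues were identical (53.0%) between their annotated coding sequences. In level the pair stood far apart, and their transcripts share no exact stretch longer than 13 bases.

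Klhl31, whose product is known to promote the turnover of filamin C, the product of Flnc, was the steadiest of the high members at 163 and 162 TPM (162 ± 0.912, rank 344). ENSMUSG00000044938.8 is on the plus strand at chr9:77636500-77660127 and has 3 exons. It had the most counts of the 7, 33817 and 33588, but came second per length. Its transcript measures 6494 bases, of which 4268 (65.7%) are 3′ UTR, whereas the Klhl41 transcript measures 2529 bases with a 3′ UTR of 25.0%. By counts alone the order would be Klhl31, Klhl41, Klhl33, Klhl40, Klhl30, Klhl21, Klhl38, so the first pair and Klhl40 with Klhl33 change places when length is taken into account.

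Klhl21 differs in its known role: it joins Cul3 ligases that act on Aurora B in dividing cells, and it has been described as a regulator of the kinase Ikbkb. It stood at 12.3 and 11.4 TPM (11.8 ± 0.636, rank 4398), from 1549 and 1438 expected counts. ENSMUSG00000073700.3 is on the plus strand at chr4:152008803-152017680, with 4 exons. Of the dividing-cell markers Mki67, Top2a, Cdk1 and Ccnb1, all 4 were at 1 TPM or more in both libraries, and their sums were 41.6 TPM (replicate 1) and 33.0 TPM (replicate 2). Their part in the level of Klhl21 was not tested.

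Klhl33, Klhl30 and Klhl38 are named here without a client protein. Klhl33 had the widest spread for its level, an SD of 25.6% of its mean, with 45.2 TPM in replicate 1 and 31.3 TPM in replicate 2 (38.3 ± 9.81, rank 1475), from 6803 and 4969 expected counts. ENSMUSG00000090799.2 is on the minus strand at chr14:50888582-50897507. Klhl30 (ENSMUSG00000026308.8, plus strand, chr1:91351016-91362416, 8 exons) was nearly level between the libraries at 29.9 and 30.6 TPM (30.2 ± 0.453, rank 1858). Klhl38 (ENSMUSG00000022357.2, minus strand, chr15:58314573-58324169, 4 exons) was lowest, with 7.57 TPM in replicate 1 and 6.01 TPM in replicate 2 from 519 and 412 expected counts. Even so, it ranked 6455 and stood above 70.7% of protein-coding genes.

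The order by level was Klhl41, Klhl31, Klhl40, Klhl33, Klhl30, Klhl21, Klhl38, and it was the same for 7 of 7 genes in each library, in the posterior mean values and in the second table. No neighbours in the order overlapped between libraries. The widest steps were from Klhl31 to Klhl40, 2.94-fold, and from Klhl30 to Klhl21, 2.55-fold. Klhl33 and Klhl30 were the least separated: the lower Klhl33 library stood at 31.3 TPM and the higher Klhl30 library at 30.6 TPM. Their means differed by less than the SD of Klhl33. Klhl40 and Klhl33 were also close, with 50.4 TPM as the lower value of the one and 45.2 TPM as the higher value of the other.

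In the second deposited table, which was made from the reads without the transcriptome alignments of the first, the 7 genes had higher TPM throughout. Klhl41 stood at 299 and 316 TPM there, Klhl31 at 229 and 224, Klhl40 at 79.2 and 91.6, and Klhl33 at 68.6 and 48.3. The 3 lower genes followed, Klhl30 at 39.9 and 39.97 TPM, Klhl21 at 17.1 and 15.6, and Klhl38 at 10.5 and 8.35. The direction of this difference depends on the scale. As another scale, shares were taken of the TPM of protein-coding genes listed in both tables, with mitochondrially encoded genes left out. On that scale the second table was lower for all 7, from 0.797 times the first for Klhl30 to 0.932 times for Klhl40.

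Promoter sequence was taken from RefSeq (build GRCm38.p6), as windows from 250 bases before to 50 after each start, and 5 of the 7 genes had an entry: Klhl21, Klhl31, Klhl33, Klhl40 and Klhl41. Windows were searched on both strands for CAGCTG, a form of the E-box that MyoD family factors bind, for the MEF2 and CArG consensus sequences, and for TATAAA. Shown are the bases before the first annotated start for Klhl41 and Klhl33, the 2 genes with a MEF2 match, and for Klhl40, the close relative of Klhl41. Capitals mark the matches, and each sequence reads 5′ to 3′ on the strand of its gene. The positions are chr2:69669870-69670119 (plus strand) for Klhl41, chr14:50897508-50897733 (minus strand) for Klhl33 and chr9:121777357-121777606 (plus strand) for Klhl40.
Klhl41: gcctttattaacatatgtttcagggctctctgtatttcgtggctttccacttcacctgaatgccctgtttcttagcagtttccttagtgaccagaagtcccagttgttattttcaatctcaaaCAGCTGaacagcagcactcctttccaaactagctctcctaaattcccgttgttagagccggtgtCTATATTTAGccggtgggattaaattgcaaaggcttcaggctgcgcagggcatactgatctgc
Klhl33: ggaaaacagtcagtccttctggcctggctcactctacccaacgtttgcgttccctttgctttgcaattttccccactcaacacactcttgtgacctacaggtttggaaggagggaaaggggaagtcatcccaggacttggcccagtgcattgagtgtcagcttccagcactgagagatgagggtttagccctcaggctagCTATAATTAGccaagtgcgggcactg
Klhl40: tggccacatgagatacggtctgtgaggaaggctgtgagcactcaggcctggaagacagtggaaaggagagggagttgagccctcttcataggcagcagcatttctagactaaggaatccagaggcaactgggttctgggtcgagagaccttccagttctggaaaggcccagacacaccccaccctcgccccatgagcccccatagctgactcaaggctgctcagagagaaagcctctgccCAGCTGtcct

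The Klhl41 window held a CAGCTG from -127 to -122 and a MEF2 match from -63 to -54, counted from the RefSeq start. Klhl33 has 2 windows in the table: the MEF2 match ran from -50 to -41 in the one shown, and the other, at a start 2155 bases from the GENCODE start, held none of the 4 motifs. The CAGCTG of Klhl40 ran from -10 to -5. Klhl21 held a CAGCTG from -165 to -160 and, at its RefSeq start, TATAAA on the other strand. The Klhl31 window held none of the 4 motifs, but only 18 of its 300 bases lie before the first annotated start. The sequence upstream of that start was therefore hardly searched. RefSeq starts lie 0 bases from the GENCODE start of the leading transcript for Klhl41 and 24 for the Klhl33 window shown. The distance is 84 for Klhl40, 88 for Klhl21 and 232 for Klhl31. For Klhl40 the RefSeq start is that of the retained-intron transcript Klhl40-202, upstream of Klhl40-201. For Klhl21 it lies inside the leading transcript, and so does the TATAAA. For Klhl31 it lies downstream of the GENCODE start, inside the gene. Over all 32851 promoter windows, 16.3% held CAGCTG, 3.19% the MEF2 consensus, 1.63% the CArG consensus and 13.6% TATAAA. A match is a description of the letters, not of a bound site. Of the factors themselves, Mef2c was the highest of the 11 myogenic and MEF2 transcription factors listed, at 188 ± 0.0141 TPM, then Mef2d at 64.0 ± 1.48 and Myf6 at 60.6 ± 8.86 TPM. Mef2b was the lowest at 0.140 ± 0.0141 TPM, and 10 of the 11 were at 1 TPM or more in both libraries.

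Among genes of the wider BTB-kelch family, the 7 muscle members made up most of the summed TPM. Of 44 other family genes listed, 43 were matched (Klhl17 is not analysed here), 34 were at 1 TPM or more and 7 at 10 TPM or more in both libraries. The median of the 43 was 3.02 ± 0.396 TPM. The 7 muscle genes took 60.7% of the summed family TPM in replicate 1 and 61.5% in replicate 2, a share of 61.1% ± 0.530. Klhl41 alone took 25.9% ± 1.23 and Klhl31 18.8% ± 0.165, so that this pair held 44.7% ± 1.07.

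Not every muscle member outranked the family. The 50 genes were ordered by mean TPM of the first table. Klhl41 and Klhl31 held ranks 1 and 2, Klhl40 rank 4, Klhl33 rank 6, Klhl30 rank 7, Klhl21 rank 13 and Klhl38 rank 18. Between them lay Klhl24 at 80.9 ± 0.0636 TPM and Ivns1abp at 44.2 ± 1.77 TPM. By the second table, Klhl22 stood above Klhl21, at 18.2 and 18.7 TPM beside 17.1 and 15.6 TPM. Klhl33 stood above Ivns1abp there in replicate 1, at 68.6 beside 63.2 TPM, and below it in replicate 2. Below Klhl30 came Keap1, the sensor that holds the oxidative stress factor Nrf2 in check, at 25.6 ± 0.509 TPM. Klhl9 and Klhl13, also known from Cul3 ligases that act on Aurora B, both stood above Klhl21, at 25.2 ± 1.36 and 19.4 ± 0.608 TPM. Kbtbd13, a BTB-kelch gene of nemaline myopathy outside the 7, was far lower than Klhl40 and Klhl41 at 3.63 ± 0.212 TPM. Klhl1 was listed at 0 in both libraries, and a count of 0 allows up to 3 counts.

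**Figure D2:**
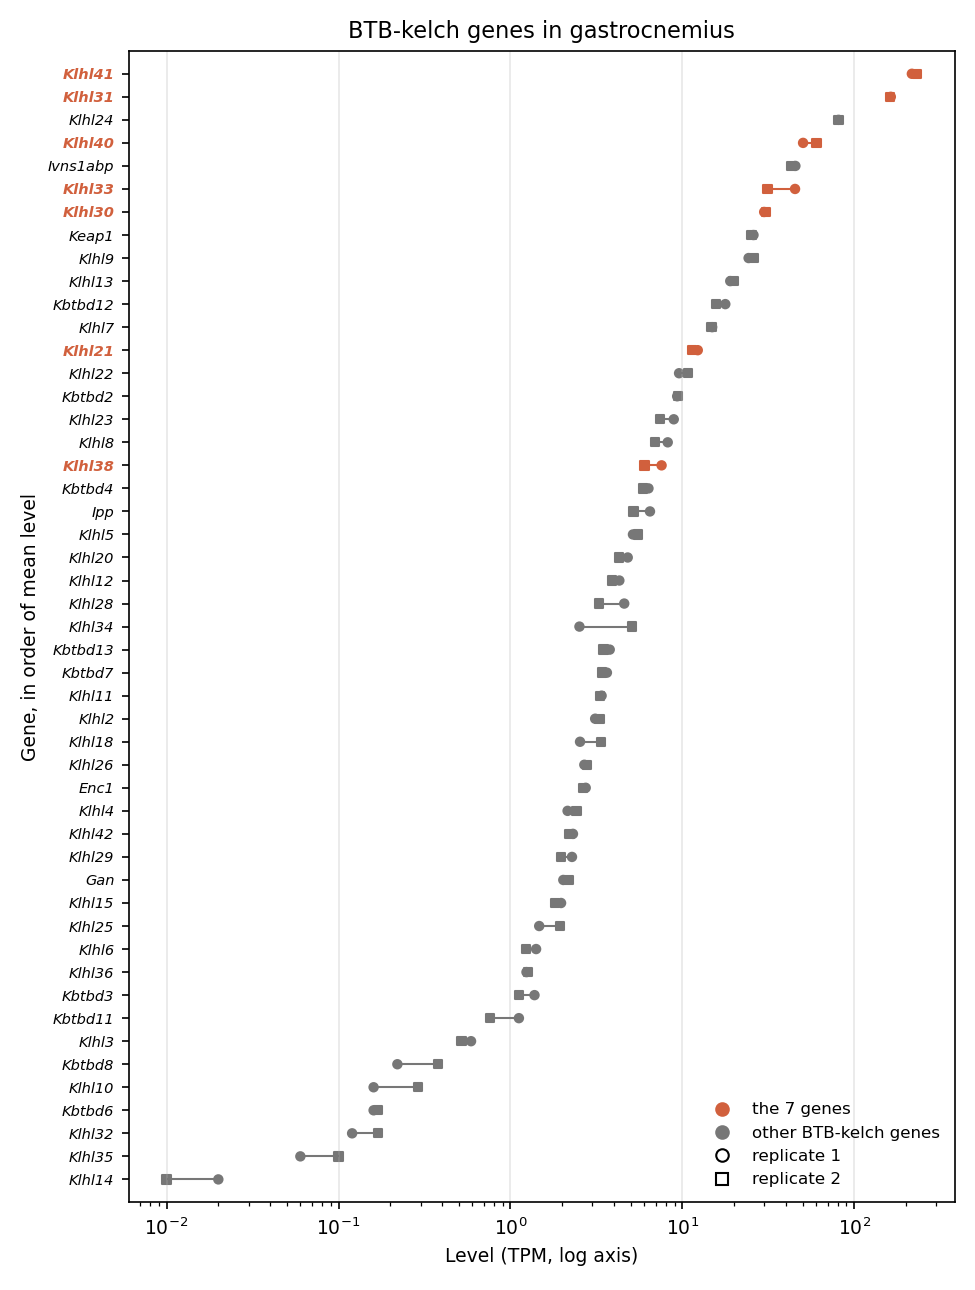
Level in TPM on a log axis of the 7 muscle kelch-like genes (orange) and the other BTB-kelch genes (grey), in order of mean level; circles are replicate 1 and squares replicate 2, and Klhl1, listed at 0, is not drawn. By mean TPM of the gene table, the 7 genes hold ranks 1, 2, 4, 6, 7, 13 and 18.

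Transcripts of every gene listed for the ligase that these adaptors join were detected. All 12 listed genes of the Cul3 core and Nedd8 pathway were at 1 TPM or more in both libraries, against 51.4% of protein-coding genes. At 10 TPM or more were 10 of them, against 21.9%, and the list median was 36.2 ± 3.23 TPM. Cul3, the scaffold itself, stood at 71.6 TPM in replicate 1 and 64.0 TPM in replicate 2 (67.8 ± 5.35). Its RING partner Rbx1 was at 52.6 ± 0.467 TPM, the modifier Nedd8 at 106 ± 2.31 TPM and Ube2m, an enzyme that conjugates it, at 69.7 ± 2.55 TPM. Klhl41 and Klhl31 each stood above Cul3 in both libraries, and the other 5 below it. Senp8, which processes Nedd8, was the lowest of the 12 at 2.93 ± 0.233 TPM.

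Proteins known to bind the members covered a wide range of levels. Neb, the giant thin-filament protein nebulin bound by KLHL40 and KLHL41, stood at 1598 and 1471 TPM (1535 ± 89.6). Nrap, a scaffold of myofibril assembly bound by KLHL41, stood at 203 and 235 TPM (219 ± 22.6). Of the sarcomere, partner and nemaline lists, it was the gene nearest to Klhl41 in level. Flnc, the client of KLHL31, was at 167 TPM in replicate 1 and 216 TPM in replicate 2 (192 ± 34.4), beside 163 and 162 TPM for Klhl31. Lmod3, the leiomodin that nucleates thin filaments and is held stable by KLHL40, was at 48.2 and 56.1 TPM (52.1 ± 5.57), close to the 50.4 and 60.2 TPM of Klhl40. The lower partners were Lasp1 at 20.1 ± 0.509 TPM, Tfdp1, a cell-cycle factor targeted by KLHL40, at 18.6 ± 0.792 TPM, Ikbkb at 5.78 ± 0.410 TPM and Aurkb, the Aurora B kinase, at 4.38 ± 0.0636 TPM.

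For scale, the gene nearest to Klhl31 in the sarcomere, partner and nemaline lists was Myo18b, an unconventional myosin of the sarcomere, at 156 ± 3.94 TPM. Lmod3 was nearest to Klhl40 and also to Klhl33 (52.1 beside 38.3 TPM). Lasp1 was nearest to Klhl30 (20.1 beside 30.2), Tfdp1 to Klhl21 (18.6 beside 11.8) and Ikbkb to Klhl38 (5.78 beside 6.79). For Klhl33, Klhl30, Klhl21 and Klhl38 the nearest gene is not a partner named here for that member. The 11 nemaline myopathy genes outside the set had a median of 165 ± 16.4 TPM, and 10 of them were at 10 TPM or more in both libraries. The highest were Acta1, skeletal muscle actin, at 23397 ± 1008 TPM, Tnnt3, fast troponin T, at 8142 ± 186 TPM and Tpm2, beta-tropomyosin, at 3777 ± 520 TPM. By the first table, Klhl41 stood above that median and Klhl40 below it in both libraries. By the second table, Klhl41 was above the median gene, Tnnt1, in replicate 1 only. Klhl41 stood at 299 and 316 TPM there and Tnnt1 at 258 and 387 TPM.

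**Figure D3:**
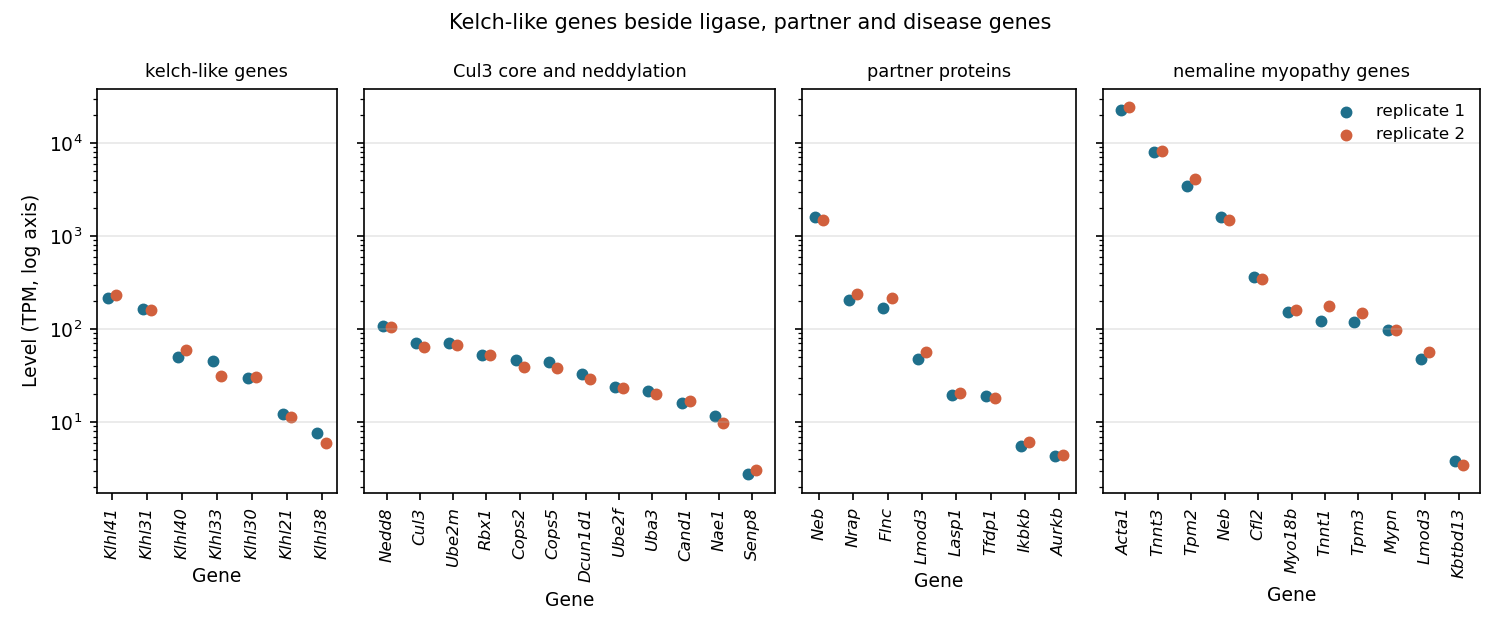
Level in TPM on a log axis of the 7 kelch-like genes, the 12 genes of the Cul3 core and Nedd8 pathway, 8 partner genes and 11 nemaline myopathy genes; each point is 1 library, blue replicate 1 and orange replicate 2, and Neb and Lmod3 appear in both right-hand panels. Klhl41 and Klhl31 lie above Cul3, and Klhl40 lies beside Lmod3 near 52.1 TPM.

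Between the libraries, Klhl41, Klhl40, Klhl31 and Klhl30 had higher scaled counts in replicate 2, and Klhl33, Klhl38 and Klhl21 had lower. As log2 ratios of replicate 2 over replicate 1 from the scaled counts, 4 of the 7 were above 0 and 3 below, against 55.9% above 0 among the 10967 protein-coding genes that averaged at least 100 expected counts. The share of the 7 is near that background. By TPM as deposited, 3 of the 7 were higher in replicate 2 and 4 lower, in both tables, since Klhl31 then falls on the other side (163 to 162 TPM). By TPM, 39.3% of the same protein-coding genes were higher in replicate 2, or 34.7% by the second table. The median was 0.06, beside 0.02 over those genes, and the mean of the 7 was -0.00297. In size, their median ratio without sign was 0.17, beside 0.11 over those genes. The 7 ratios ran from -0.38 to 0.33, and the 5th and 95th percentiles of all those genes were -0.30 and 0.34.

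In 2 of the 7 the higher library exceeded the lower by more than 25% after scaling, as it did in 9.68% of the protein-coding genes. Klhl40 was higher in replicate 2, with a log2 ratio of 0.33 (95% counting interval 0.26 to 0.39), which is 25.3% higher. It was the only member higher in replicate 2 by that much, against 5.61% of the genes, and it lies just inside the threshold: under library totals or spike-in totals the count is 1, Klhl33. Klhl33 was lower in replicate 2, with a ratio of -0.38 (-0.44 to -0.33), or 1.30-fold higher in replicate 1. It was the only member past 25% in that direction, against 4.08% of the genes, and 5.98% of the genes had a larger ratio in either direction.

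The other 5 genes differed by less. Klhl38 was lower in replicate 2 with a ratio of -0.26 (-0.45 to -0.07), which at its low counts is the widest interval of the set. Klhl41 was higher in replicate 2 by 0.17 (0.14 to 0.21), Klhl30 by 0.10 (0.03 to 0.18) and Klhl31 by 0.06 (0.04 to 0.08). The direction for Klhl31 depends on the scale, as its TPM was lower in replicate 2 in both tables. Klhl21 was at -0.04 (-0.14 to 0.07). The counting interval left out 0 for 6 of the 7, all but Klhl21, and for 35.7% of the protein-coding genes. Under library totals it left out 0 for 4 of the 7, with Klhl31 at 0.02 (-0.005 to 0.04) and Klhl30 at 0.06 (-0.02 to 0.13), and under spike-in totals for 5, with Klhl30 at 0.07 (-0.004 to 0.15). These exact binomial intervals cover counting error only, so with 2 libraries they say nothing of the spread between mice. They also narrow as counts rise. The 7 genes averaged from 465.5 (Klhl38) to 33702.5 (Klhl31) counts, where the background starts at 100, and the shares were not compared at like counts. Klhl31 left out 0 although 70.3% of the protein-coding genes had a larger ratio in either direction. The second table gave each gene a ratio of the same sign, 0.35 for Klhl40, -0.36 for Klhl33 and -0.22 for Klhl38 among them.

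**Figure D4:**
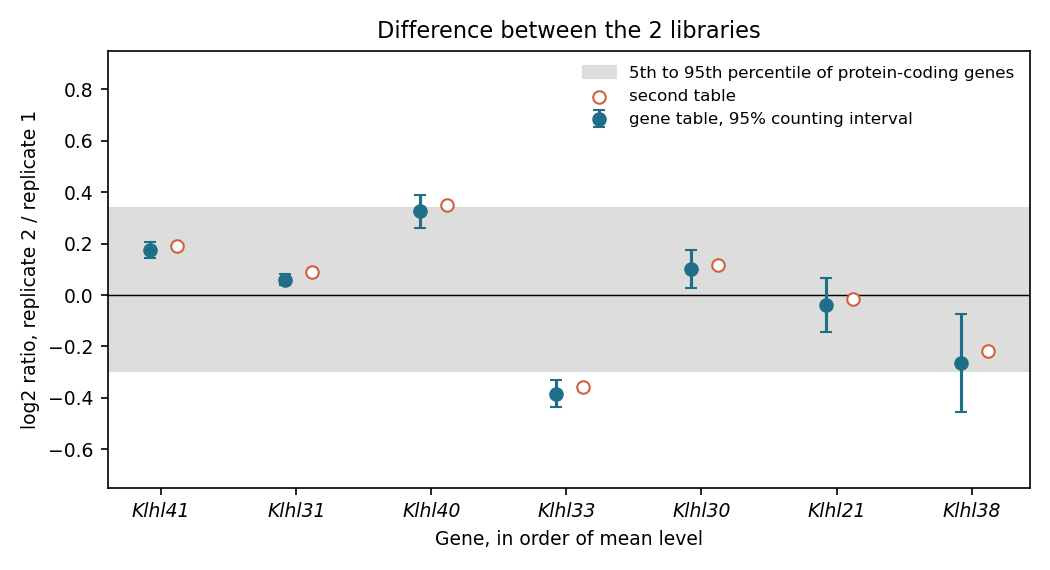
Log2 ratio of replicate 2 over replicate 1 for each of the 7 genes; filled points with bars are the gene table with 95% counting intervals, open points the second table, and the grey band spans the 5th to 95th percentile of 10967 protein-coding genes. Klhl33, at -0.38, is the member outside the band, and Klhl40, at 0.33, lies at its upper edge.

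Other gene groups also differed between the same libraries. For comparison, 9.68% of the protein-coding genes averaging at least 100 expected counts were past 25%, and 55.9% had a ratio above 0. Replicate 2 was the higher library for 10 of 10 slow sarcomere genes, 9 of them past 25%, with a median log2 ratio of 0.57 and summed levels of 1197 and 1636 TPM. Of the 9 immediate early genes with enough counts, all were higher in replicate 2 and 8 past 25%, with a median of 1.04. For the 12 fast sarcomere genes the median was 0.05, with 2 past 25%, and for the 6 muscle fibre markers it was -0.04, with 0 past 25%. Among markers of other cells, 4 of 4 mural genes were higher in replicate 2 (median 0.25, 2 past 25%), as were 4 of 4 endothelial genes (median 0.20, 1 past 25%). Of the 4 dividing-cell genes, 3 were lower in replicate 2 (median -0.24, 2 past 25%), and 4 of 4 fibroblast genes were lower (median -0.10, 0 past 25%). Of 3 leukocyte genes with enough counts, 2 were higher (median 0.34, 2 past 25%). Of 4 Schwann cell genes, 3 were lower (median -0.12, 0 past 25%). The 4 satellite cell genes were split 2 and 2 (median -0.003, 0 past 25%). The 2 cardiac genes with enough counts were split 1 and 1 (median 0.25, 1 past 25%). The cardiac gene past 25% was Myh6, higher in replicate 2 by 0.51. By the second table its TPM was lower in replicate 2, at 18.2 and 15.8 TPM. The part of these groups in the ratios of the 7 genes was not tested.

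Partner and ligase genes showed their own ratios beside these. Flnc was higher in replicate 2 by 0.41, the only one of 8 partners past 25%, beside 0.06 for Klhl31. Lmod3 was higher by 0.29 and Nrap by 0.28, beside 0.33 for Klhl40 and 0.17 for Klhl41, and Neb was at -0.07. The remaining partners were Ikbkb at 0.19, Tfdp1 at 0.09, Lasp1 at 0.05 and Aurkb at -0.02. Over the 12 Cul3 and Nedd8 genes the median was 0.002, with 0 past 25%. Of 33 other BTB-kelch genes with enough counts, 2 were past it, against 9.68% of protein-coding genes. They were Klhl34, at 2.52 (replicate 1) and 5.08 TPM (replicate 2), and Kbtbd11, at 1.12 and 0.760 TPM.

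Only Klhl33 and Klhl40 have more than 1 annotated transcript, and both carry one with a retained intron. Klhl33-204, of 5513 bases and 4 exons with a reading frame of 793 residues, took 79.7% of the gene's TPM in replicate 1 and 86.0% in replicate 2 (82.8% ± 4.46). The retained-intron transcript Klhl33-203, of 1819 bases, took 11.8% and 10.5%. Klhl33-201, annotated as 1602 bases of coding sequence alone, took 5.23% in replicate 1 and was listed at 0% in replicate 2. The effective length used for Klhl33, which weights its transcripts by these shares, was 4639 bases in replicate 1 and 4883 in replicate 2. Its TPM differed by 1.44-fold where its scaled counts differed by 1.30-fold. The library scaling of the counts also enters this gap, and its part and that of length were not separated.

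The tables disagreed on these minor forms. The second table gave Klhl33-201 18.4% and 17.5% of the gene, and Klhl33-204 70.5% and 72.9%. For Klhl40, the coding transcript Klhl40-201 (2370 bases, 6 exons, 621 residues) took 100% and 99.7% in the first table but 83.5% and 86.8% in the second. The rest fell to the retained-intron transcript Klhl40-202, at 0% and 0.290% in the first table and 16.5% and 13.2% in the second. The level of each gene kept its place in the order under either division.

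**Figure D5:**
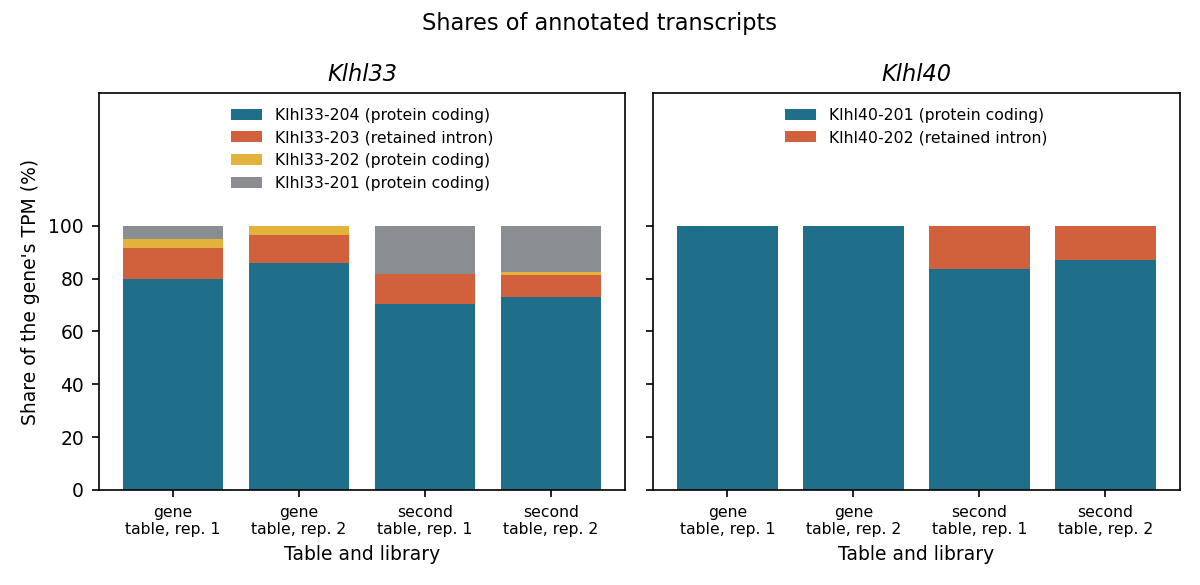
Share of the gene's TPM taken by each annotated transcript of Klhl33 and Klhl40, in percent; each bar is 1 library in 1 table. Klhl33-204 and Klhl40-201 lead in all 4 bars, and the second table gives 16.5% and 13.2% to the retained-intron form of Klhl40.

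Read sharing among the members is limited by their sequences. Over the 21 pairs, protein identity ran from 23.4% for Klhl33 with Klhl41 to 53.0% for Klhl40 with Klhl41, and Klhl21 with Klhl30 came second at 41.2%. The longest exact stretch shared by the transcripts of any pair was 32 bases, between Klhl33 and Klhl41, followed by 20 bases between Klhl31 and Klhl41. Klhl21, Klhl38 and Klhl40 each overlap exons of an annotated gene on the opposite strand, by 817, 1446 and 540 bases. Those genes, Gm9768, Gm15943 and Gm47108, were at no more than 0.180 TPM in either library. The sources used here do not say if counting was by strand, and these 3 levels could include reads of the opposite strand.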

How the data were processed

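Total RNA libraries of 2 mice form 1 group. The authors deposited per-library tables of genes and transcripts in RSEM layout, with TPM, expected counts and posterior mean counts. Per the file headers and notes, they derive from alignments to the GENCODE M21 transcriptome (mm10). The deposited transcript tables give each transcript's percent of its gene. Second deposited tables, in kallisto layout, hold estimated counts (37386161 and 36335649 in all) and TPM. The sources used here name no aligner or program version.

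Expected counts were rounded. Libraries were scaled by TMM (edgeR 4.0.16, R 4.3.3) over endogenous genes averaging at least 10 counts, spike-ins left out. Log2 ratios used a prior count of 0.5, and 95% intervals are exact (Clopper-Pearson) binomial intervals. The ratios were also computed on simulated counts that held counting error only, a check that says nothing of the spread between mice. Proteins were translated from GENCODE coding sequences and aligned with Biopython 1.88; other steps used Python 3.11.15. Alternatives included DESeq2 1.42.0 size factors, totals, other prior counts, both tables and leaving out each replicate.

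The 7 genes and all lists were chosen with earlier results of these data known. Named are the 7, the 3 highest and the lowest of a list, any gene a sentence turns on, and transcripts with 5% or more. Further family and partner genes were named after their values were seen. The ratios of the transcription factor list are not reported here.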

Additional observations from a re-analysis of the deposited data

How the results depend on the processing

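With 1 group and no second condition there was no test whose call could change. No paired analysis was possible because there is only 1 group. The order of the 7 genes was the same under every alternative run. Each gene's ratio of counts kept its sign under 8 of 8 alternatives of scaling, filter, prior count and table, so 4 stayed higher in replicate 2. By deposited TPM, 3 were, and the interval left out 0 for 4 genes under library totals and 5 under spike-in totals in place of 6; these alternatives were added after seeing the data. The median level, 38.3 TPM, was 58.4 TPM in the second table, and the mean over the 7 in its place was 75.6 TPM. The median log2 ratio of 0.06 turned to -0.00297 when the mean over the 7 was taken. The number whose higher library exceeded the lower by more than 25%, 2, fell to 1 under library totals and to 1 under spike-in totals, where Klhl40 dropped below the threshold, and to 0 with a threshold of 1.5-fold. The share in the summed BTB-kelch TPM, 61.1%, was 60.1% in the second table, again added after seeing the data. Leaving out each replicate gave medians of 31.3 and 45.2 TPM and a highest-to-lowest ratio of 38.6 and 28.6. Depth limits Klhl38 most, and 2 libraries limit every statement of spread.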
